A study of Homo sapiens with 4 samples.

Results

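The open regions of proximal chromosome 7 were the intervals on the short arm of that chromosome, with a start below 60 Mb, that ATAC-seq peaks marked in at least 1 of 4 libraries. ATAC-seq uses a transposase that cuts and tags DNA where chromatin is accessible. Merging the 4 peak lists wherever peaks overlapped by at least 1 bp gave 138467 regions on chromosomes 1 to 22 and X, and 2929 of them lay in the segment. The segment was selected on the calls of these lists, since earlier results had shown an unusual balance of KO-only and WT-only calls there. The differences between genotypes along it are therefore descriptions, and none was tested.

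All 4 libraries came from 786-O cells, grown in RPMI medium with serum. 786-O is an established line from a human clear cell carcinoma of the kidney and has lost the tumour suppressor VHL. Both WT control libraries were negative control cells that express Cas9 from a lentivirus and have a wild-type genotype. Both DEK KO libraries came from the same Cas9-expressing line after infection with another lentivirus that carries DEK guide RNAs, followed by sorting of single cells. DEK is an abundant nuclear protein that binds chromatin and chaperones histones. Because the cells with Cas9 were cloned before the guides were added, all 4 libraries descend from 1 clone per the labels, and the knockout cells passed through a further single-cell step that the labels do not mention for the controls. The labels do not say whether the replicates of a group were separate clones or separate cultures, so the spread between replicates may be technical.

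The short arm of chromosome 7 carries the HOXA cluster, a row of homeobox transcription factor genes that pattern the embryo, and the gene of EGFR, the epidermal growth factor receptor. Gain of chromosome 7 is a recurrent change in renal tumours, above all in the papillary type. In ATAC-seq the number of fragments at a site follows both how open each copy of the site is and how many copies the cells carry. The lists held no DNA input, so fewer copies of the segment and fewer fragments per copy cannot be told apart here.

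Promoter sequences of 6 genes are shown first because each overlaps a region that the results turn on. STEAP1B and DNAH11 had a region called only in the controls at their start, TTYH3 had one called only in the knockout, and HOXA4, HOXA10 and HOXA13 stand for the HOXA cluster, where the difference in signal varied from gene to gene. Each is the 250 bases upstream of a RefSeq start on GRCh38.p14, written along the gene's strand. Capitals mark matches, on either strand, to 6 motifs: the CCAAT box (CCAAT), the GC box (GGGCGG), the TATA box (TATAAA), the AP-1 site (TGANTCA), the E-box (CACGTG) and the core of the CTCF consensus. The CTCF motif was added after the sequences had been seen.
STEAP1B, chr7:22500189-22500438, minus strand: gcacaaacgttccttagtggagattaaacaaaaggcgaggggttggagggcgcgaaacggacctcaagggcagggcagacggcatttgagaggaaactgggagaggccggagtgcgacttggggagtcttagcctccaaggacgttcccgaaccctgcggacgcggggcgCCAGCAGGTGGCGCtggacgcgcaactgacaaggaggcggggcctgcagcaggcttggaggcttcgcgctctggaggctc
DNAH11, chr7:21542789-21543038, plus strand: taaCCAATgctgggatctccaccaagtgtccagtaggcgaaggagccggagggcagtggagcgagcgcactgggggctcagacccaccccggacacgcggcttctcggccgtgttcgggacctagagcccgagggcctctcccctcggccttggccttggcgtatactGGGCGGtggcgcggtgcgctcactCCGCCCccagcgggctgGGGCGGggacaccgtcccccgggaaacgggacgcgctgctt
TTYH3, chr7:2631736-2631985, plus strand: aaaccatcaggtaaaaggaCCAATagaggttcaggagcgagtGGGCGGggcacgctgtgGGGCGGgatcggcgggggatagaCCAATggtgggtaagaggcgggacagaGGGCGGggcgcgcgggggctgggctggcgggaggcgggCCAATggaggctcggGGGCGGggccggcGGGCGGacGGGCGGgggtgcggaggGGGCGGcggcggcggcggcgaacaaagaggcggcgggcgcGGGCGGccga
HOXA4, chr7:27130758-27131007, minus strand: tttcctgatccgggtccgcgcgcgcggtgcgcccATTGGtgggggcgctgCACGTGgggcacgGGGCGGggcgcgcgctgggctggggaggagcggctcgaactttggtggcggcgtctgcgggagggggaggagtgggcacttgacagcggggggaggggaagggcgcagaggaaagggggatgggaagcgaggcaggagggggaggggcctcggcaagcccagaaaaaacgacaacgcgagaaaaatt
HOXA10, chr7:27179862-27180111, minus strand: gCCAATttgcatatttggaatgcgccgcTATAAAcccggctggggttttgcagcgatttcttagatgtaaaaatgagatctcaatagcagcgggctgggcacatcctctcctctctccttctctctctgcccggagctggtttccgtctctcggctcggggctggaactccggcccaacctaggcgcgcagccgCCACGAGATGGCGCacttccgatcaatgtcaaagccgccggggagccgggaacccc
HOXA13, chr7:27200092-27200341, minus strand: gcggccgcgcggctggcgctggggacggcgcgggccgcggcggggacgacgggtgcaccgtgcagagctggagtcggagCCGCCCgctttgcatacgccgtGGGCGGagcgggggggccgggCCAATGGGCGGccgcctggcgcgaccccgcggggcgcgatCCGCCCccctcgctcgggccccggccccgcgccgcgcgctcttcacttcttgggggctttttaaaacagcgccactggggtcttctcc
Of 34961 promoter windows of this length, 32% held the CCAAT box, 42.7% the GC box, 10.7% the TATA box, 6.54% the AP-1 letters, 6.35% the E-box and 0.549% the CTCF core. The STEAP1B window held the CTCF core once and none of the other motifs. The HOXA10 window also held 1 CTCF core match, beside a CCAAT box and a TATA box. The TTYH3 window held 8 GC boxes and 3 CCAAT boxes, with a GC content of 75.6%. DNAH11 had 3 GC boxes and 1 CCAAT box, HOXA13 had 4 GC boxes and 1 CCAAT box, and HOXA4 had 1 of each and 1 E-box. These matches are letters in a window, not measured binding.

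RefSeq lists 25 miRNA hairpins in the segment, and 4 of them overlapped an open region. The arms of the pair whose region was called in all 4 libraries are shown with the seed, bases 2 to 8, in capitals.
hsa-miR-196b-5p: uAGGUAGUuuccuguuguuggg
hsa-miR-196b-3p: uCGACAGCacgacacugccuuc
hsa-miR-589-5p: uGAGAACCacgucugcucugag
hsa-miR-589-3p: uCAGAACAaaugccgguucccaga
No seed was shared among these 4 arms. The hairpin of miR-196b lies inside the HOXA cluster, at chr7:27169480-27169563 on the minus strand, and that of miR-589 at chr7:5495819-5495917, also on the minus strand.

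Each list held the authors' peaks for 1 library, 89563 and 90409 in WT control replicates 1 and 2 and 102760 and 99508 in DEK KO replicates 1 and 2. Read depth is not recorded in peak lists and is unknown here. The DEK gene held 4 regions, all called in all 4 libraries, so the lists do not check the knockout. Of 6 markers of renal epithelium and renal carcinoma, 5 had a region called in all 4 libraries within 1 kb of a gene end, and CA9 had none. No marker of blood (0 of 3) or endothelium (0 of 2) had such a region, whereas 1 of 2 hepatocyte markers (APOA1) and 1 of 2 neuronal markers (SYT1) did.

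The DEK KO lists were longer than the control lists, but they held fewer peaks in the segment. Peaks there numbered 2026 in WT control replicate 1, 2086 in WT control replicate 2, 1957 in DEK KO replicate 1 and 1938 in DEK KO replicate 2. As a share of each list this was 2.26%, 2.31%, 1.90% and 1.95%, which gives 2.29% ± 0.03 (SD, n = 2) in the controls and 1.93% ± 0.03 (SD, n = 2) in the knockout. Both knockout shares lay below both control shares, by far more than replicates differed. On the rest of chromosome 7 the order was the other way, with 3.68% and 3.82% in the controls and 3.82% and 4.33% in the knockout, where DEK KO replicate 1 matched WT control replicate 2.

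The call classes showed the same tilt. A region was WT-only if both control lists and neither knockout list called it, and KO-only in the opposite case. In the segment 129 regions were WT-only, 4.40% of the 2929 (exact 95% binomial interval 3.69 to 5.21), where 2.57% of all regions of the genome were. KO-only regions numbered 96, or 3.28% (2.66 to 3.99), against 6.26% of all regions. KO-only regions thus made up 42.7% (36.1 to 49.4) of the 225 single-genotype regions of the segment. The share was 75.5% (71.6 to 79.1) on the rest of chromosome 7, with 394 KO-only and 128 WT-only regions, and 71.3% (70.4 to 72.1) on the other chromosomes. These intervals cover counting error only, and the segment was picked for this contrast. The largest class was the shared regions: 1310, or 44.7%, were called in all 4 libraries, near the 45.3% of the genome.

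Calls in a single list or missing from a single list moved in the same direction. Regions called in exactly 1 control list numbered 470 (16.1%, genome 10.8%), and those called in exactly 1 knockout list numbered 424 (14.5%, genome 18.6%). Both controls and 1 knockout library shared 213 regions (7.27%, genome 5.23%), and 1 control and both knockout libraries shared 104 (3.55%, genome 5.93%). Mixed regions, called in 1 library of each genotype, numbered 183 (6.25%, genome 5.33%).

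Single-genotype regions were weak and narrow peaks, and few marked promoters. Within a list each peak was given the percentile of its −log10 p, where 100 is the strongest, and regions were ordered by their lower percentile among the lists that called them. The median of that lower percentile was 19.7 for WT-only and 20.6 for KO-only regions, against 53.7 for regions called in all 4 libraries. It exceeded 50 in 5 of 129 WT-only and 15 of 96 KO-only regions. Over the genome it did so in 135 of 3554 WT-only and 875 of 8673 KO-only regions, so the higher ranks of KO-only regions are not particular to the segment. Median widths were 582 bp, 531.5 bp and 958.5 bp in the same order. A gene-end region, within 1 kb of either end of a protein-coding gene, made up 4.65% of the WT-only (6 regions), 5.21% of the KO-only (5 regions) and 14.96% of the shared regions. The WT-only regions lay inside genes in 51.9% of cases, and the KO-only regions in 42.7%. Over the genome the values were close to these, with gene-end shares of 6.02% and 3.89% and shares inside genes of 53.3% and 44.3% for WT-only and KO-only regions.

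Along the arm the balance of single-genotype regions was not even. From the end of the short arm, successive 10 Mb windows held 20, 19, 35, 30, 19 and 6 WT-only regions and 14, 11, 19, 19, 31 and 2 KO-only regions. WT-only regions outnumbered KO-only regions in 5 of these 6 windows. The exception was the fifth, from 40 to 50 Mb, where KO-only regions made up 62.0% (47.2 to 75.4), an interval that reaches the value of the other chromosomes. From the second window on, the genes with the most assigned regions were C7orf78 (12), SNX10 (20), ZNRF2 (17), GLI3 (21) and EGFR (27), where each region counts for the protein-coding gene whose end was closest, up to 50 kb away.

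**Figure D1:**
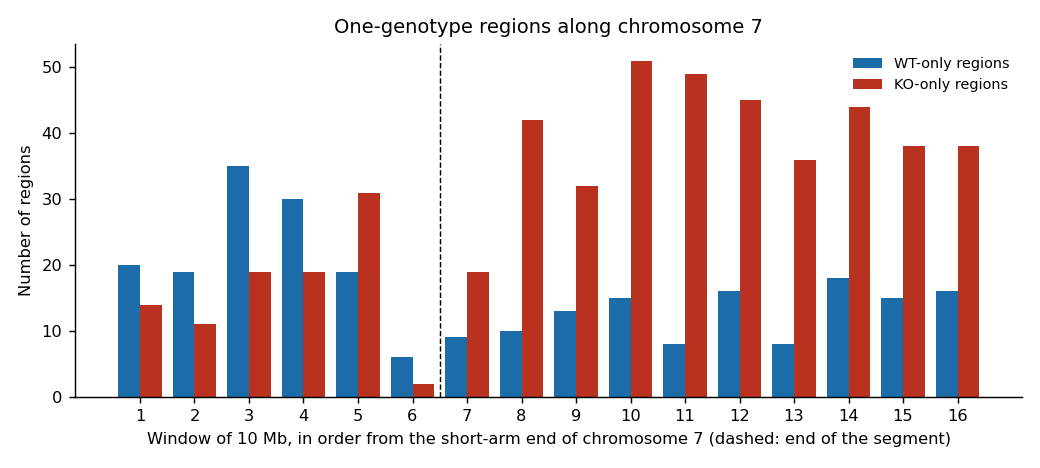
Number of WT-only (blue) and KO-only (red) regions in each 10 Mb window of chromosome 7, numbered from the short-arm end, with the end of the segment dashed. WT-only bars are the taller ones in windows 1 to 4 and 6, and KO-only bars in window 5 (31 against 19) and in every window beyond the segment.

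The strength of shared regions was described by the summit pileup, the number of fragments or reads that the peak caller stacked at a peak's summit. It is not a deposited column, but the deposited fold and −log10 p together fix it, and a whole number was recovered for 100% of the peaks. To allow for library size, each pileup was divided by the list's median over the 62686 regions called in all 4 libraries, which was 43, 43, 38 and 43 in WT control replicates 1 and 2 and DEK KO replicates 1 and 2. Medians over the 1310 shared regions of the segment were 49, 49, 34 and 40. Relative to each list's own median these are 1.14 in both controls, 0.895 in DEK KO replicate 1 and 0.930 in DEK KO replicate 2, so that both controls stood above their genome median and both knockout libraries below theirs.

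Region by region, the log2 difference in relative pileup from the mean of the controls had a median of −0.39 in DEK KO replicate 1 and −0.33 in DEK KO replicate 2. On the linear scale these are 0.763 and 0.795 times the control level. The size depends on the scaling for DEK KO replicate 2: scaled by the caller's lowest background, the medians were −0.32 and −0.07 in the segment, against 0.02 and 0.24 over the other chromosomes. The median difference between the controls was 0.00, and its middle 50% of regions ran from −0.17 to 0.17. Over the other chromosomes the medians were −0.05 and −0.02, and over the rest of chromosome 7 they were −0.07 and 0.22. In 719 of the 1310 regions (54.9%) both knockout libraries lay below both controls, against 28.6% over all shared regions of the genome. In 139 (10.6%) both lay above, against 23.5%.

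The knockout replicates split at about 15 Mb, a position chosen after the values had been seen. In the first 15 Mb, over 320 shared regions, the median was −0.40 in DEK KO replicate 1 but −0.03 in DEK KO replicate 2, or 0.757 and 0.981 times the control level. Scaled by the lowest background, DEK KO replicate 2 stood at 0.23 there. From 15 to 60 Mb, over 990 regions, the medians were −0.38 and −0.43, or 0.767 and 0.745 times. Scaled by the lowest background instead, they were −0.32 and −0.17, against 0.02 and 0.24 over the other chromosomes. In windows of 2.5 Mb, the median of DEK KO replicate 1 lay below 0 in all 23 windows that held shared regions, between −0.64 and −0.23. That of DEK KO replicate 2 lay between −0.07 and 0.02 in the 6 windows up to 15 Mb and between −0.65 and −0.25 in the 17 windows beyond. On the rest of chromosome 7 the windows ran from −0.19 to 0.13 in DEK KO replicate 1 and from −0.17 to 0.40 in DEK KO replicate 2. A lower signal in both knockout libraries was thus seen from 15 to 60 Mb, and the first 15 Mb were low in DEK KO replicate 1 alone.

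**Figure D2:**
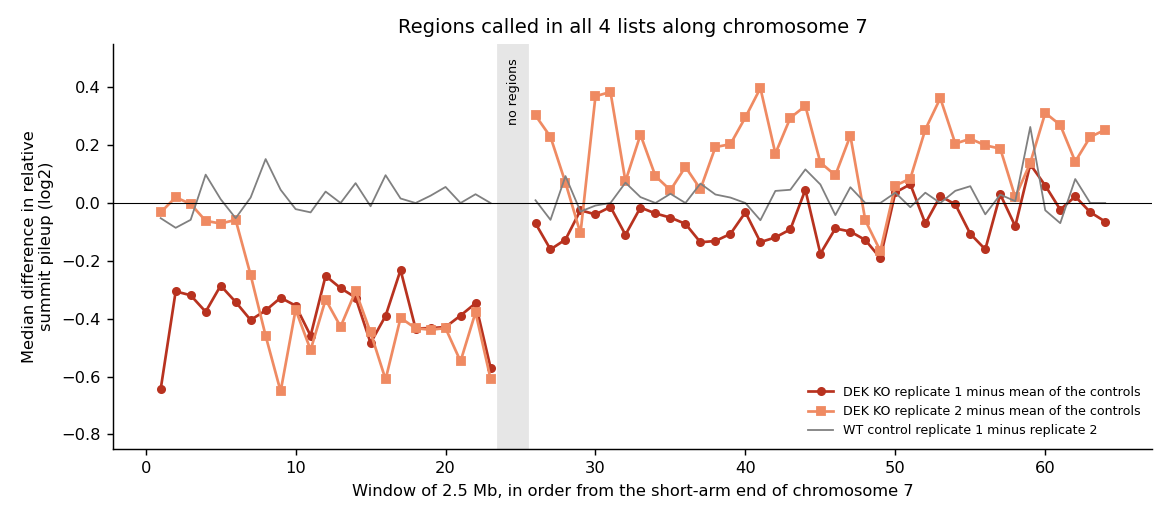
Median log2 difference in relative summit pileup over regions called in all 4 libraries, in 2.5 Mb windows numbered from the short-arm end of chromosome 7. Red circles and orange squares are DEK KO replicates 1 and 2 against the mean of the controls, and the grey line is the difference between the controls. Replicate 1 is below 0 in all 23 windows before the gap, whereas replicate 2 is near 0 in the first 6 and at −0.25 or lower in the other 17.

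The share of regions with both knockout libraries below both controls followed this split: 35.0% (112 regions) in the first 15 Mb, 61.3% (607 regions) from 15 to 60 Mb and 17.9% (408 of 2282) on the rest of chromosome 7. Calls in 1 knockout list differed between the stretches too. In the first 15 Mb, 95 regions (13.0%) were called in DEK KO replicate 2 alone and 33 (4.51%) in DEK KO replicate 1 alone. From 15 to 60 Mb the same counts were 138 (6.28%) and 158 (7.19%). Over the genome the shares were 9.19% and 9.43%. On the rest of chromosome 7 they were 15.6% and 10.2%, so replicate 2 alone exceeded replicate 1 alone there as well. The share of each list's peaks in the first 15 Mb was 0.546% and 0.556% in the controls, 0.423% in DEK KO replicate 1 and 0.528% in DEK KO replicate 2. The share from 15 to 60 Mb was 1.72%, 1.75%, 1.48% and 1.42%, with no overlap between genotypes. The KO-only share of single-genotype regions, which needs both knockout lists, was alike in both stretches, at 42.6% (20 of 47) and 42.7% (76 of 178).

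**Figure D3:**
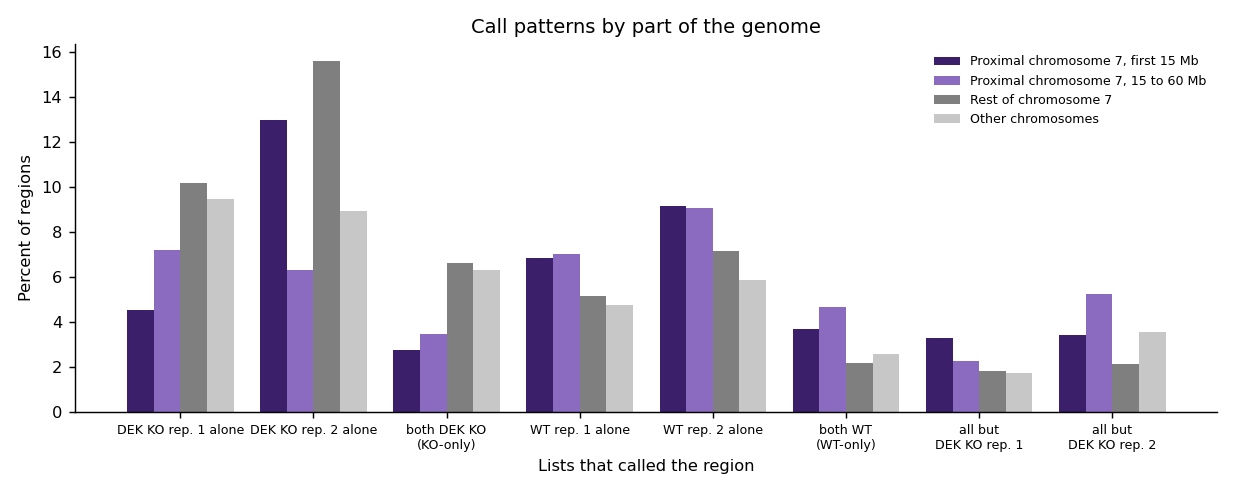
Percent of regions with each pattern of calls, by part of the genome. For DEK KO replicate 1 alone and replicate 2 alone, bars stand at 4.51% and 13.0% in the first 15 Mb (dark purple). From 15 to 60 Mb (light purple) they stand at 7.19% and 6.28%. The rest of chromosome 7 has 10.2% and 15.6%, and the other chromosomes have 9.46% and 8.92%.

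The local background moved with the summit pileup. In 561 shared regions of the segment the caller's background estimate was at least 2 times the lowest value in every list, so that it reflects fragments around the peak. There the background differed from the controls by −0.39 in DEK KO replicate 1 and −0.37 in DEK KO replicate 2 (median log2, scaled like the pileup). In the first 15 Mb these were −0.39 and −0.02, from 15 to 60 Mb −0.39 and −0.45, and on the rest of chromosome 7 −0.04 and 0.26. Fold over background, the ratio of the pileup to the background, was close to each list's own median: 7.63, 7.08, 7.07 and 8.0 in the segment against 7.48, 6.95, 7.19 and 8.04 over all shared regions. The part of the background in the difference was not tested.

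The rank of −log10 p within each list carried the same order of libraries, but the rank of fold did not: the difference in median percentile, DEK KO minus WT control, was −2.81 with −log10 p and reversed to 0.0086 with fold. Shared regions of the segment had a median percentile of 67.2 and 67.7 in the controls and 64.5 and 64.7 in the knockout. Over all shared regions of the genome the order was the reverse, with 64.3 and 64.8 in the controls and 68.7 and 67.1 in the knockout. Ranked among shared regions only, where the median is 50 in every list, the segment stood at 53.9, 54.0, 44.0 and 46.7. In the first 15 Mb the ranks were 51.8, 53.5, 39.6 and 53.8, and from 15 to 60 Mb they were 54.9, 54.2, 45.4 and 44.3.

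From 15 to 60 Mb, promoters were lower in both knockout libraries more often than shared regions as a whole. A start-site region lay within 1 kb of a RefSeq start of a protein-coding gene. Of 155 such regions in the segment that all 4 libraries called, 111 (71.6%) had both knockout libraries below both controls, against 28.3% over the 9782 such regions of the genome, and 1 had both above, against 12.4%. From 15 to 60 Mb the count was 96 of 109 (88.1%, against 61.3% of all shared regions there), in the first 15 Mb it was 15 of 46 (32.6%, against 35.0%), and on the rest of chromosome 7 28 of 336 (8.33%). The median differences were −0.58 and −0.38 in the segment and −0.16 and 0.02 over the genome, so start-site regions as a class were lower in DEK KO replicate 1 everywhere. Regions between genes had smaller differences in the segment, with medians of −0.32 and −0.28 over 526 regions.

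The segment holds 302 protein-coding genes of the RefSeq table. For each, the strongest region near a listed start was taken, or near a gene end where no start was listed, and 207 genes had one. In 180 genes all 4 libraries called it. In 122 of these (67.8%) both knockout libraries were below both controls, in 2 both were above, and in the other 56 the genotypes overlapped. From 15 to 60 Mb the count was 107 of 120 (89.2%), and in the first 15 Mb 15 of 60. The counts of the gene lists below are to be read against these shares, since lists differ in where their members lie. Genes on a shared promoter, such as PSPH and CCT6A, count once each here although they read the same region. The following genes are taken from lists of known function, and every value is the summit pileup in WT control replicates 1 and 2 and DEK KO replicates 1 and 2, in that order.

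**Figure D4:**
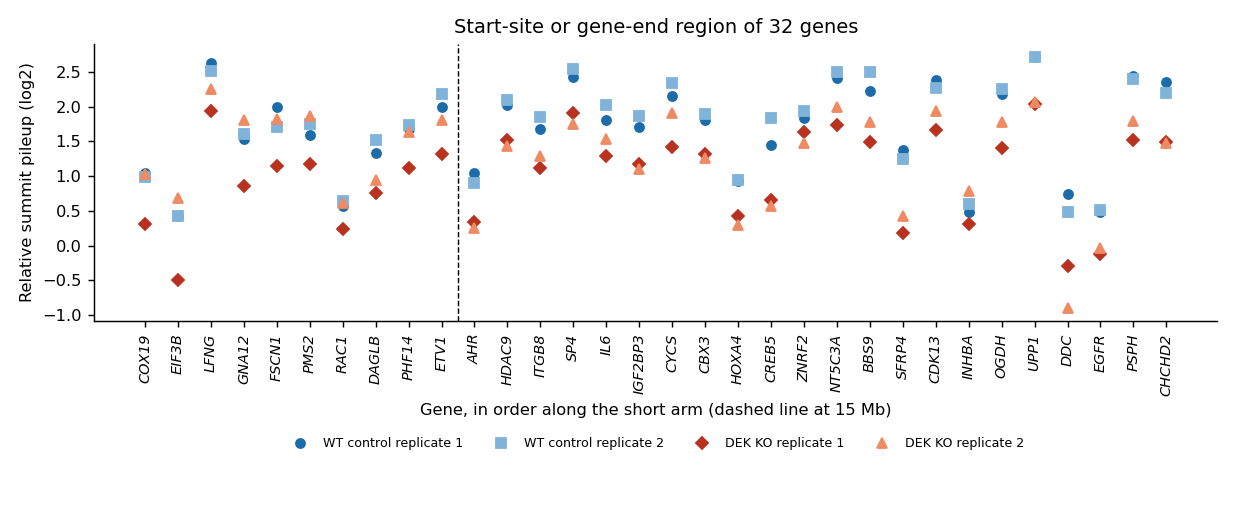
Relative summit pileup (log2) at the start-site or gene-end region of 32 genes in order along the arm, chosen after their values had been seen, for WT control replicates 1 and 2 (blue) and DEK KO replicates 1 and 2 (red and orange). Left of the 15 Mb line the orange points lie within, above or below the blue ones, and right of it both knockout points lie under both controls except at INHBA.

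Of 16 listed transcription factor genes, 7 had a start or gene-end region that every library called. All 7 had both knockout libraries below both controls, with medians of −0.60 and −0.73. The 180 genes had −0.57 and −0.36, and the 120 of them from 15 to 60 Mb had −0.59 and −0.45. At AHR, the receptor for dioxin-like ligands, the values were 89, 80, 48 and 51 at chr7:17297956-17299962. SP4, a zinc finger factor that binds GC boxes, had 230, 251, 142 and 145 at chr7:21426905-21428525, which is 0.669 and 0.604 times the control level. At CREB5, a bZIP factor, the values were 117, 154, 60 and 64. HDAC9, a histone deacetylase, had 174, 184, 109 and 116. In each of these 4 genes the knockout replicates were close together and well below the lower control. ETV1, an ETS factor at 14 Mb, had 172, 194, 95 and 150, so that DEK KO replicate 2 lay much nearer the controls. TWIST1, a factor of mesenchymal programmes, had no region at a gene end, and its only shared region was weak, with 10, 13, 9 and 12. FERD3L, another basic helix-loop-helix factor, also had no region at its start, and its only shared region was higher in both knockout libraries, with log2 differences of 0.79 and 0.83.

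At the HOXA cluster the differences at gene starts were smaller than over the 120 genes from 15 to 60 Mb. The 12 listed genes had 39 assigned regions, 20 of them shared, with 13 below in both knockout libraries, 2 above and 5 overlapping. That count below is near the 61.3% of all shared regions from 15 to 60 Mb. Among 8 genes with a shared region at the start or end, 7 were below and HOXA13 overlapped. Their medians were −0.19 and −0.31, where the 120 genes from 15 to 60 Mb had −0.59 and −0.45. Towards the 3′ end of the cluster, which holds the anterior genes, HOXA2 had 42, 59, 32 and 35. HOXA4, whose promoter is printed above, had 82, 83, 51 and 53, or 0.700 and 0.642 times the control level. HOXA3 (85, 85, 68 and 70), HOXA5 (66, 71, 51 and 65) and HOXA6 (63, 68, 53 and 53) differed less.

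The posterior genes lie at the 5′ end of the cluster. HOXA10 had 93, 88, 76 and 68, with log2 differences of −0.07 in DEK KO replicate 1 and −0.41 in DEK KO replicate 2. At HOXA13 the values were 34, 39, 31 and 33, so that relative pileups of 0.791, 0.907, 0.816 and 0.767 overlapped. HOXA9 was called in 3 libraries, with 51 and 58 in the controls and 52 in DEK KO replicate 2, and was not called in DEK KO replicate 1. HOXA7, and EVX1 beyond the 5′ end, had no region at their start. HOXA11 had the only KO-only gene-end region of the cluster, at chr7:27184398-27184749, with 22 in both knockout libraries. Its percentiles of 13.7 and 16.2 were low. The region over the miR-196b hairpin, a miRNA known to target HOX messages, went the other way from its neighbours, with 46, 49, 45 and 53 and log2 differences of 0.10 and 0.16. The miR-589 region, in the first 15 Mb, had 87, 88, 69 and 96.

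Of 9 genes flanking the cluster, 7 had a shared start or gene-end region. All 7 had both knockout libraries below both controls, with medians of −0.54 and −0.59, near the 107 of 120 over all genes beyond 15 Mb. The shared promoter of HNRNPA2B1, which encodes an RNA-binding protein, and CBX3, which encodes the heterochromatin protein HP1 gamma, had 151, 160, 95 and 103. At the start of SKAP2, an adaptor protein of Src-family signalling, the values were 45, 47, 31 and 27. TAX1BP1, an autophagy receptor, had 111, 112, 68 and 80.

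Genes of growth factor signalling differed by position. Of 21 listed genes, 13 had a shared region, with 8 below in both knockout libraries, none above and 5 overlapping, and medians of −0.63 and −0.31. EGFR had 60, 61, 35 and 42 at its start, chr7:55018641-55019106. Of the 18 shared regions assigned to EGFR, 13 were below, 1 was above and 4 overlapped. From 15 to 60 Mb, 61.3% of all shared regions were below. The strongest, inside the gene at chr7:55185378-55186951, had 239, 244, 166 and 199, and another at chr7:55064940-55066572 had 234, 222, 125 and 114. SFRP4, a secreted WNT antagonist, had 112, 102, 43 and 58, or 0.455 and 0.543 times the control level. IGFBP3, which binds insulin-like growth factors, had 61, 62, 46 and 46 at its strongest assigned region, chr7:45923441-45925044. IL6, an inflammatory cytokine, had 151, 175, 93 and 125. INHBA, which encodes the activin A subunit, was an exception beyond 15 Mb, with 60, 65, 47 and 74. GNA12, a G protein subunit in the first 15 Mb, had 124, 131, 69 and 151, where DEK KO replicate 1 was lowest and DEK KO replicate 2 highest.

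Of 21 matched genes of metabolism and mitochondria, 18 had a shared region, with 15 below against 122 of 180 over all genes, 3 overlapping and medians of −0.77 and −0.55. UPP1, uridine phosphorylase, had the highest controls, with 283, 282, 156 and 180. At DDC, the decarboxylase that makes dopamine and serotonin, the values were 72, 60, 31 and 23, or 0.534 and 0.350 times the control level. NT5C3A, a pyrimidine nucleotidase, had 228, 242, 127 and 172 and was the shared region of the segment with the highest mean percentile. Near the centromeric end, CHCHD2, a mitochondrial protein, had 220, 197, 107 and 119. The promoter shared by PSPH, the last enzyme of serine synthesis, and CCT6A, a chaperonin subunit, had 234, 226, 109 and 149. COX19, a copper chaperone of cytochrome oxidase in the first 15 Mb, had 89, 85, 47 and 88, with DEK KO replicate 2 among the controls.

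Genome maintenance and cell cycle genes were split. All 13 had a shared region, with 6 below, 1 above and 6 overlapping, and medians of −0.49 and −0.07. CDK13, a kinase of transcription elongation, had 225, 206, 120 and 165. ANLN, the cytokinesis scaffold anillin, had 155, 156, 98 and 113. POLD2, a subunit of DNA polymerase delta, overlapped with 121, 141, 103 and 131. PMS2, a mismatch repair gene in the first 15 Mb with near-identical copies on the chromosome, had 130, 144, 86 and 157, so its value is uncertain. RPA3, a subunit of the single-strand binding protein RPA, was the member above, with 20, 20, 21 and 26. The other gene with both knockout libraries above was ZMIZ2, a transcriptional coregulator that is in no list, with 52, 38, 47 and 57, which relative to each list is 1.21, 0.884, 1.24 and 1.33.

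For RNA binding and translation, 8 of 10 genes were below, near the 122 of 180 over all genes, and 2, EIF3B and EIF2AK1, overlapped. IGF2BP3, an oncofetal RNA-binding protein, had 140, 156, 86 and 92. EIF3B, an initiation factor subunit in the first 15 Mb, had 58, 58, 27 and 69. For ubiquitin and protein folding, 7 of 10 genes with a shared region were below, again near that share. The promoter shared by PSMA2, a proteasome subunit, and MRPL32, a mitochondrial ribosomal protein, had 150, 148, 72 and 93. FKBP9, a prolyl isomerase, overlapped with 88, 84, 74 and 94.

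The remaining lists were small. Cytoskeleton and adhesion genes had 4 of 8 below, with ITGB8, an integrin subunit, at 137, 155, 82 and 105 and RAC1, a small GTPase in the first 15 Mb, at 64, 67, 45 and 66. ACTB, beta actin, overlapped at its strongest gene-end region, with 63, 71, 62 and 74. All 3 immune genes with a shared region were below, among them NOD1, a sensor of bacterial peptidoglycan, with 94, 118, 83 and 67. Relative to the list medians, DEK KO replicate 1 was nearly level with WT control replicate 1 at NOD1. Both renal transport and cilium genes were below, with BBS9, of the Bardet-Biedl ciliary complex, at 201, 242, 107 and 147. In the list labelled neuronal, SUGCT was the single gene with a shared region, at 93, 83, 48 and 52. The label is that of the list, and SUGCT itself is not a neuronal gene. In renal, immune and neuronal lists most members had no shared region at a start or gene end, though several held shared regions elsewhere, so these counts rest on few genes.

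Genes also differed in how many single-genotype regions they held. Over the genome KO-only regions outnumbered WT-only regions, at 8673 to 3554, and no count per gene is given there. In the segment 48 genes had more WT-only than KO-only regions assigned, 38 had more KO-only, and for 216 of the 302 the numbers were equal, mostly 0. ZNRF2, a ubiquitin ligase of membranes, had the largest surplus, with 5 WT-only and 0 KO-only regions among 17. Its 7 shared regions all had both knockout libraries below both controls, as did 61.3% of all shared regions from 15 to 60 Mb. At its start, chr7:30284074-30285059, the values were 153, 164, 118 and 119. The WT-only regions were weak, and the highest ranked, at chr7:30382286-30383280, lies 14.6 kb from the nearest gene end, with 28 and 17 in the controls and no call in the knockout.

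SNX10, an endosomal sorting nexin, had 3 WT-only and 0 KO-only regions among 20. Of its 12 shared regions 10 were below, 1 overlapped and 1 was above, where 61.3% of shared regions from 15 to 60 Mb were below. Inside the gene, the region at chr7:26346626-26347423 had 84, 98, 51 and 41, and its neighbour at chr7:26347991-26349302 had 88, 90, 44 and 33. The region above, at chr7:26321057-26322053, had 37, 31, 39 and 40. NT5C3A, AOAH, PRPS1L1, GNA12 and AGMO each had 2 WT-only regions and no KO-only region assigned. Another WT-only region inside AOAH lies 90.4 kb from a gene end, beyond the 50 kb limit, and is not counted.

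**Figure D5:**
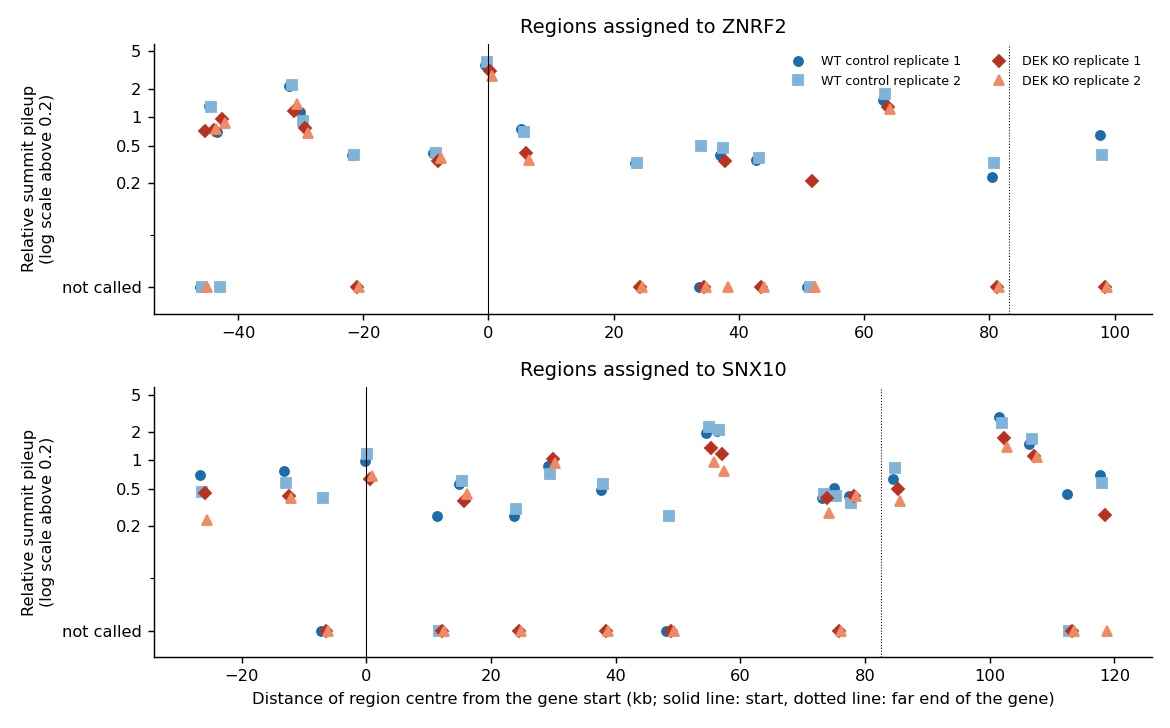
Relative summit pileup (log scale above 0.2) of every region assigned to ZNRF2 and SNX10, by distance in kb from the start of the gene, for the 4 libraries, with regions not called by a library on the bottom line. At ZNRF2 the 5 WT-only regions have blue points only, and at its 7 shared regions the red and orange points lie under the blue ones.

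Of the 38 genes with more KO-only regions, 5 had a surplus of 2, namely DGKB, NUDCD3, RALA, PKD1L1 and STK17A, and 33 had a surplus of 1, among which EPDR1 was the nearest gene to the highest-ranked KO-only region. NUDCD3, a dynein cofactor, was lower at its start, with 86, 81, 43 and 62. Yet 4 of its 7 shared regions had both knockout libraries above both controls, against 10.8% from 15 to 60 Mb. Among these, the region inside the gene at chr7:44386297-44387232 had 81, 89, 85 and 114. DGKB, a diacylglycerol kinase at 14 Mb, had 1 shared region above, with 60, 43, 63 and 80, and 1 below, with 63, 54, 29 and 43, on opposite sides of the gene. The 1 Mb window from 14 to 15 Mb, which holds DGKB, had 6 shared regions, of which 0 were below and 3 above, with medians of 0.16 and 0.19. Over the first 15 Mb, 35.0% were below and 10.0% above. At RALA, PKD1L1, STK17A and EPDR1, in contrast, 19 of 26 shared regions were below and 1 was above. From 15 to 60 Mb, 61.3% of all shared regions were below and 10.8% above.

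The strongest WT-only region was the STEAP1B start, at chr7:22500031-22500320, with pileups of 46 and 39, percentiles of 78.1 and 73.0, and no call in either knockout list. STEAP1B is a membrane protein of the STEAP family with a close relative, STEAP1, on the same chromosome, so its reads may be shared and its value is uncertain. The region covers 132 of the 250 promoter bases printed above. Among the next 9, 3 lay before the start of SP4, between 101 and 166 kb from it, at chr7:21325813-21327380, chr7:21261561-21262349 and chr7:21318318-21318975. The first of these had 44 and 40 in the controls. The others lay inside AOAH, PRKAR1B and PALS2 and nearest to BMPER, LOC112267992 and PRR15.

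The 10 highest-ranked KO-only regions had lower percentiles from 58.4 to 74.9, against 44.2 to 73.0 for the 10 highest WT-only regions. High ranks were more frequent among KO-only regions over the genome as well. None of the 10 KO-only regions was at a gene end. The top region lay inside PDE1C, a cyclic nucleotide phosphodiesterase, at chr7:31860979-31861356, with 36 in DEK KO replicate 1 and 38 in DEK KO replicate 2. The next lay inside DGKB at chr7:14191573-14192296, with 37 and 48, and the third inside NUDCD3 at chr7:44486767-44487229, with 54 and 57, 3.43 kb from the gene's start. The others lay inside ELMO1 or nearest to HYCC1, EPDR1, ABCB5, BMPER, MRPL32 and BBS9.

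The 6 shared regions of highest mean percentile were those of NT5C3A, BBS9 and EGFR given above and 3 others. UMAD1, at its gene end in the first 15 Mb, had 226, 257, 131 and 237, with DEK KO replicate 2 between the controls. A region inside OSBPL3, which encodes an oxysterol-binding protein relative, had 221, 216, 137 and 167 at chr7:24820332-24821850. The third, at chr7:46568446-46569635 and 647 kb from IGFBP3, had 190, 182, 103 and 155.

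Gene-end regions of a single genotype were few and mostly weak. Beside STEAP1B, the WT-only ones were at ZNF316 (27 and 23), DNAH11 (12 and 13), NACAD (20 and 12), PGAM2 (21 and 18) and RBAK-RBAKDN (13 and 14). DNAH11 encodes an axonemal dynein of motile cilia and PGAM2 the muscle form of phosphoglycerate mutase. The KO-only ones were at TTYH3 (45 and 72), HOXA11 (22 and 22), KDELR2 (11 and 12), ACTB (28 and 41) and STK17A (12 and 8). TTYH3, a membrane protein of the tweety family, was the strongest of these, at chr7:2631395-2631786, and covers 51 of its 250 printed promoter bases. The main region at this start, chr7:2632228-2634293, was shared and far stronger, with 144, 135, 74 and 129 and both knockout libraries below both controls.

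The choice of 60 Mb as the end of the segment fell in a gap. The last regions inside, at chr7:56127359-56127610 and chr7:56173443-56173682, were each called in 1 list, with 10 in DEK KO replicate 1 and 11 in WT control replicate 2. The first outside were at chr7:63015402-63016068, called in 1 control and both knockout lists with 13, 19 and 20, and at chr7:63900233-63900710, called in DEK KO replicate 1 with 10.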

How the data were processed

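Open chromatin was described from 4 narrowPeak lists of ATAC-seq in 786-O cells, 2 WT control and 2 DEK KO. Each library had its own deposited list, so replicates were not pooled for peak calling. The submitters' processing notes list the peak caller MACS2 2.2.7.1 and the aligner Bowtie2 2.2.5, beside cutadapt 1.18, SAMtools 1.7, ChIPseeker 1.32.1 and DiffBind 3.6.5, and the builds GRCh38 and hg38. Settings, including any shift of reads for the transposase, are not given in the sources used here. For extraction and library making, the labels' protocols give an RNA reagent and an mRNA kit, so the making of the ATAC libraries is not known from them. The deposited columns hold a score, the fold of pileup over background (a ratio), the −log10 of p and of q, and a summit offset in bp, as the authors' peak caller wrote them. The lowest −log10 q was between 1.30 and 1.32, which matches a q-value cutoff of 0.05 in the deposited lists.

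Between 135 and 167 peaks per list, outside chromosomes 1 to 22 and X, were left out. Lists were merged at 1 bp of overlap, and the class of a region states which lists held a peak there. Percentiles rank the authors' −log10 p within a list. For each peak, the whole-number pileup and the background that give both the deposited fold and the deposited −log10 p under a Poisson model were solved numerically, with a relative error of at most 1.1e-05. The caller's lowest background was 2.16, 2.39, 1.92 and 1.90 in WT control replicates 1 and 2 and DEK KO replicates 1 and 2. The solver and the classes were tested on simulated data. Genes, promoters and miRNAs came from RefSeq tables of GRCh38.p14 (19974 protein-coding genes). Starts were listed for 240 of the 302 genes of the segment. In the gene lists, NDUFA4 did not match the table by symbol. Python 3.11.15, numpy 2.4.6, pandas 2.3.3, scipy 1.17.1 and matplotlib 3.10.9 were used.

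Named regions were the 10 highest-ranked of each single-genotype class, up to 10 at gene ends, and the 6 highest shared regions. Named genes were the 6 with the largest surplus in each direction, the HOXA genes, up to 4 members per list with single-genotype regions, and the gene with the most regions per window. Some results that this rule names are not reported here. Other genes named from the lists were chosen after their values had been seen. The segment, the lists and the rules were chosen with earlier results of these data known, and the summit pileup, the 15 Mb split and the 2.5 Mb windows after the values had been seen. No test was run, because the segment was chosen on the same contrast.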

Additional observations from a re-analysis of the deposited data

How the results depend on the processing

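No paired analysis was possible because no result comes from a test, and the labels do not say what the shared replicate numbers mean. With lists cut to equal length, 64 KO-only and 185 WT-only regions remained in the segment, the KO-only share was 25.7% (57.3% elsewhere), the percentile difference of shared regions (DEK KO minus WT control) was −6.98 in place of −2.81, and genes with more WT-only and more KO-only regions numbered 76 and 24. At −log10 q of at least 5 the share was 35.4% and the difference −6.33. With the 20000 strongest peaks, 17 KO-only regions were left, the share was 15.9% and the difference −21.2. Ranked among shared regions the difference was −8.57, and with fold in place of −log10 p it reversed to 0.0086 (2.43 elsewhere). Ending the segment at 40 Mb left 63 KO-only regions, and assigning regions by gene span left 24 genes with more KO-only regions. With a library left out, both classes rest on 1 list of its genotype, a looser rule under which counts rise and shares can move. Leaving out each library in turn gave 201 to 398 WT-only regions (the most without WT control replicate 1), 142 to 334 KO-only regions (the most without DEK KO replicate 1), a KO-only share of 27.8% to 59.2% (below the share elsewhere in each case), a percentile difference of −3.50 to −2.88 and a mean pileup difference of −0.39 to −0.33. That difference, −0.36 on the log2 scale, was −0.40 without the first 15 Mb and −0.20 when pileups were scaled by the caller's lowest background, a scaling that moves the other regions of the genome to 0.14. The share of shared regions with both knockout libraries below both controls, 54.9%, was then 61.3% and 41.3% (15.1% elsewhere). With that scaling DEK KO replicate 2 moved up by about 0.25 everywhere, to −0.07 in the segment and 0.25 over all shared regions. The KO-only share of every 10 Mb window (6 of 6) and every 5 Mb window (12 of 12) lay below the 71.5% elsewhere, but not by an even margin. From 40 to 50 Mb it was 62.0%, with an interval (47.2 to 75.4) that includes the value elsewhere. The part from 45 Mb on was close to that value, with 71.4% up to 47.5 Mb and 69.2% from there to 50 Mb. The segment was chosen on this balance, so the count of windows is not independent support. Merging at a larger overlap, and using regions with 1 peak per list, moved no value beyond its spread. Unknown read depth limits every weak call: a region missing from a list may hold fragments below the caller's threshold.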
